A study of Rattus norvegicus with 39 samples.

Results

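Cytosolic ribosomal protein genes encode the proteins of the ribosome that translates nuclear mRNAs, and their mRNA levels are described here in rat liver after brief ischemia and reperfusion. Members were all probe sets on the array whose single gene symbol began with Rpl or Rps and a digit, or was Rpsa, Rplp0, Rplp1 or Rplp2. Ribosomal protein kinases and symbols marked as pseudogenes by "-ps" were left out. The rule gave 214 of 23409 probe sets and 170 of 18891 genes, and each gene was represented by its probe set with the highest mean. No measured difference was used to choose them. Of the 170 genes, 68 carried the canonical name of a ribosomal protein (42 of the large and 26 of the small subunit) and 96 were numbered copies, named after a parent gene with "l" and a number. Another 5 were named paralogs (Rpl3l, Rpl7l1, Rpl22l1, Rps27l and Rps4y2), and Rps19bp1 encodes a binding partner of Rps19 and not a ribosomal protein.

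The ribosome joins a small subunit, which reads the mRNA, to a large subunit, which forms the peptide bond. Each subunit is assembled in the nucleolus from ribosomal RNA and roughly equal numbers of its proteins. The mRNAs of these proteins typically begin with a C followed by a run of pyrimidines, the 5′ terminal oligopyrimidine (TOP) tract, through which mTOR signalling and the RNA-binding protein Larp1 control their translation. Liver is known for making more ribosomes when it regrows. Mammalian genomes also hold many processed copies of ribosomal protein genes, most of them without introns.

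Male Wistar rats, bought at 5–6 weeks of age, underwent 30 min of warm ischemia of 70% of the liver by occlusion of flow to the left and median lobes, and livers were taken after reperfusion for 0 hr, 0.5 hr, 2 hr or 6 hr. RNA came from those lobes combined (reperfused), from the right lobe of the same 3 animals at each time (non-ischemic), and from 3 rats per time with the same surgery but no occlusion (sham). Livers of 3 unoperated rats completed the 39 Affymetrix Rat Transcriptome 1.0 arrays, in 13 groups of 3. Liver is a mixture of cell types, so fewer cells of a type and less RNA per cell cannot be told apart.

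The annotated starts of the genes show how the canonical members and the copies differ. A start was counted as TOP when the annotated transcript began with C and at least 4 further bases on that strand were C or T. RefSeq windows on GRCr8 were found for 131 members. Such a start stood at 20 of 55 canonical genes (36.4%) and at 2 of 70 numbered copies (2.86%), against 722 of 27457 genes in all (2.63%). Within 10 bases of the start the tract was found for 74.5% of the canonical genes, 28.6% of the copies and 28.8% of all genes. The windows below run 15 bases to each side of the start, 5′ to 3′, with the TOP tract in capitals. They show 4 canonical genes with a TOP start, the copy Rpl10al1, which has one as its parent Rpl10a does, and then Rpl3 and 3 copies that had large changes at 6 hr and no TOP tract at the annotated start.
Rpl10 (GRCr8, chrX:157205835-157205864, plus strand): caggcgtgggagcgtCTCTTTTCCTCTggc
Rpl10a (GRCr8, chr20:6390518-6390547, plus strand): gaaaccttctgccttCTTTTCCggttcccg
Rpl28 (GRCr8, chr1:78083518-78083547, minus strand): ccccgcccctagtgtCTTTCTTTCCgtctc
Rplp1 (GRCr8, chr8:71290858-71290887, minus strand): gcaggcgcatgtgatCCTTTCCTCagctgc
Rpl10al1 (GRCr8, chr6:93086401-93086430, minus strand): aacaaaaacaatttgCTTCTTTTCCggttc
Rpl3 (GRCr8, chr7:113507976-113508005, minus strand): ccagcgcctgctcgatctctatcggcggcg
Rps9l1 (GRCr8, chrX:110361242-110361271, minus strand): tagtatattacctttgtcacgggcctgagt
Rpl17l3 (GRCr8, chr2:38662277-38662306, plus strand): gtggccagaggtgacctgtgaagatggttc
Rpl23al5 (GRCr8, chr14:60779154-60779183, plus strand): acccttttcatcaggatggcgccgaaaggg
A window without the tract says only that these letters are not at that annotated position.

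Values are log2 of the deposited intensities, and a log2 difference of 1 is a doubling. The means of the members' probe sets ran from 3.57 for Rpl27l4 to 18.51 for Rps29, with a median of 9.74 against 5.37 over all probe sets, and 16 members were dim, with a mean under 5. Rps29, a small-subunit zinc-finger protein, Rplp1 and Rpl31l15 had the brightest probe sets. Only Rps29 came near saturation, with 1 value over 19 among its 39. Probes for a gene and its copies may bind the same RNA: probe sequences were not used here, so a copy's value cannot be told apart from its parent's where their sequences match. In 16 of 39 families with both, the probe set of a copy was brighter than that of the canonical gene.

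The group means of the members had a median range over the 13 groups of 0.86 log2 units, against 0.51 for all probe sets. Of all 23409 probe sets 10762 had a mean under 5, against 16 of the 170 members. Probe sets of like brightness were not compared, so signal level and a wider range of the members cannot be told apart here. Rps9l1 had the widest range (2.02), before Rps26l1 (1.74, with a mean under 5) and Rpl17l3 (1.68), and the muscle paralog Rpl3l, dim here, had the narrowest (0.17), followed by Rpl10 (0.31) and Rpl39l1 (0.37). The highest group mean was that of the reperfused lobes at 6 hr for 114 of 170 members, and the lowest was that of the 0 hr shams for 82.

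Averaged over the 170 members, the deviation from each gene's own mean was -0.06, 0.07, 0.09 and 0.43 in the reperfused lobes at 0, 0.5, 2 and 6 hr. It was -0.16, -0.13, -0.10 and 0.29 in the non-ischemic lobes and -0.27, -0.06, -0.09 and -0.02 in the shams, with 0.00 in the unoperated livers (SD at 6 hr 0.22 for reperfused and 0.25 for non-ischemic lobes, n = 3). At 6 hr the single arrays gave 0.62, 0.47 and 0.20 in the reperfused lobes, with 0.55, 0.25 and 0.06 in the non-ischemic lobes. All 12 shams lay between -0.31 and 0.04, below each of these, while the unoperated livers gave 0.20, -0.08 and -0.11. The same mean over all probe sets stayed between -0.03 and 0.03 on every array. The array numbered 3 had the lowest mean over the members in 13 of 13 groups, although different groups hold different animals except for the lobes of a liver. What the number stands for is not given in the sources used here, and its part in the results was not tested beyond the fits described under the processing.

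**Figure D1:**
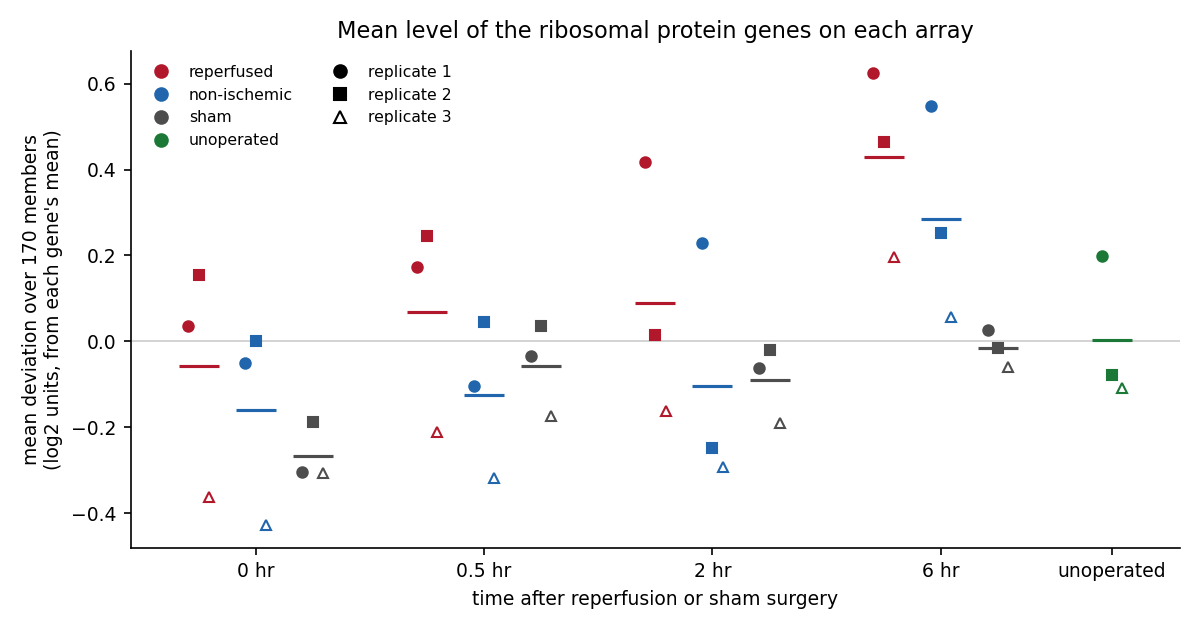
Mean deviation of the 170 members from their own means (log2 units, y axis) on each of the 39 arrays, by time and group (x axis). Points are arrays, shaped by replicate number, and bars are means of 3. The 6 arrays of the 6 hr lobes lie between 0.06 and 0.62, above all 12 shams, and open triangles (replicate 3) are lowest in each of the 13 groups.

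The comparison of reperfused with non-ischemic lobes sets the occluded side against the other side of the same liver. The occluded lobes were the left and median and the others the right in every animal, so occlusion and lobe of origin cannot be told apart. No member passed a q of 0.05 in limma at 0, 0.5, 2 or 6 hr, where 0.0%, 0.0513%, 0.0128% and 0.0% of all probe sets did. Without adjustment, a p under 0.05 was reached by 0, 12, 4 and 6 members. The differences were small but leaned one way: their median was 0.11, 0.20, 0.18 and 0.13 at the 4 times, against 0.01, -0.00, 0.00 and -0.00 over all probe sets, and 140, 156, 155 and 143 of 170 members were higher in the reperfused lobes. In each of the 12 animals the reperfused lobes had the higher mean over the members, by 0.06 to 0.28, with 105 to 161 of 170 members higher. No p is given for this mean, since the members were chosen with earlier results known.

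**Figure D2:**
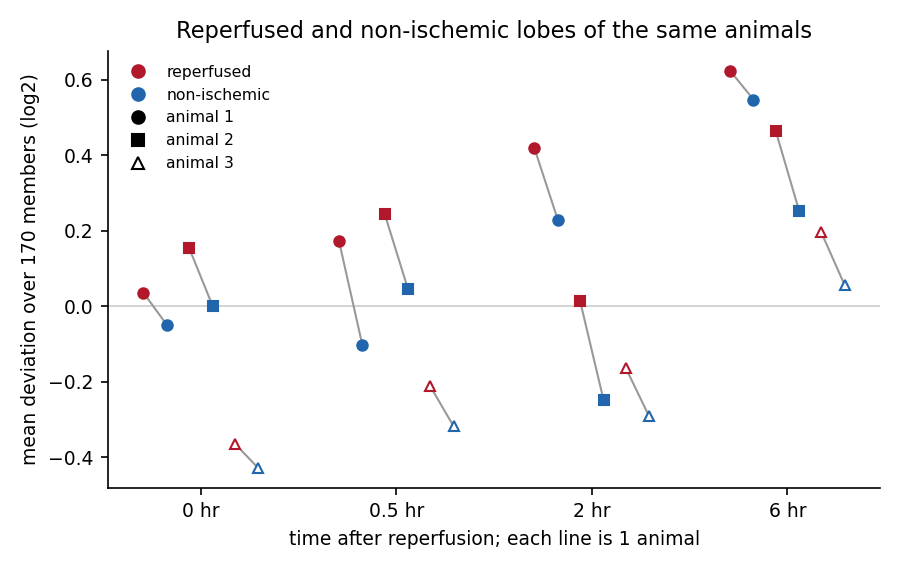
Mean deviation of the 170 members (log2 units, y axis) in the reperfused and the non-ischemic lobes of the 12 animals, by time of reperfusion (x axis). Each line joins the lobes of 1 animal. All 12 lines fall to the right, by 0.06 to 0.28, and the distance between animals of a group is often larger than that between lobes.

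At 6 hr, the member with the lowest p between lobes was Rpl23al7, a copy of Rpl23a, whose protein sits at the mouth of the peptide exit tunnel. It measured 7.53, 7.35 and 7.61 in the reperfused lobes of the 3 animals, with 6.83, 6.99 and 6.76 in their non-ischemic lobes. These groups do not overlap, the difference was 0.64 ± 0.11 (SE), and q was 0.95. At 2 hr it was Rpl22l1, the paralog of the RNA-binding protein Rpl22, with 6.80, 6.88 and 6.80 in reperfused and 6.51, 6.56 and 6.30 in non-ischemic lobes, a difference of 0.38 ± 0.10 (q = 0.47). Rpl15l2 differed by -0.65 ± 0.18 at 0.5 hr (q = 0.68), the only one of these that was lower in reperfused lobes, and Rpl23al2 by 0.41 ± 0.17 at 0 hr (q = 1.00). Neither is bright, with group means near 5 or below.

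Against the 12 shams pooled over time, which the study used as its common control, few members were called at 0 and 0.5 hr. The lobe sampled in sham livers is not given in the sources used here, so in these comparisons lobe of origin and surgery cannot be told apart. At 0 hr no member passed in either lobe (23 at an unadjusted p under 0.05 in each), where 0.0128% of all probe sets passed for the reperfused and 0.00854% for the non-ischemic lobes. The lowest p in the reperfused lobes at 0 hr was that of Rplp2, at a difference of -1.08 ± 0.30 (q = 0.20). The non-ischemic lobes of 0 hr had falls of like size, with a lowest member difference of -1.15 and a lowest limma q of 0.17. At 0.5 hr 1 member passed in each lobe, where over all probe sets 0.803% passed as higher and 0.243% as lower in the reperfused lobes, and 0.286% as higher and 0.0897% as lower in the non-ischemic lobes. Rps26l1, a copy of the small-subunit gene Rps26 and a dim member, passed with 1.55 ± 0.25 (q = 0.012) in the non-ischemic lobes, at 5.74, 6.20 and 6.61 against 4.07 to 5.27 (median 4.50) in the shams, a level under the mark of 5, so that the size of the difference is uncertain. The reperfused lobes of these animals gave 5.56, 5.58 and 4.82. By 2 hr the 3 non-ischemic values were 4.81, 3.99 and 4.83, and none was above the highest sham. Both calls were lost without 2 of the 3 lobe arrays in turn: replicate 1 or 2 of the reperfused lobes, replicate 2 or 3 of the non-ischemic lobes. They were also lost when dim probe sets were left out. Other settings gave more calls, at 0.5 hr 9 in the reperfused and 12 in the non-ischemic lobes against shams of the same time, and in a fit to all 39 arrays 6 and 7 at 0.5 hr and 4 and 7 at 0 hr.

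At 2 hr, 10 members had risen in the reperfused lobes and 6 in the non-ischemic lobes, and none had fallen. These are 5.88% and 3.53% of the members. Of all probe sets 3.95% and 3.9% were higher and 2.94% and 2.94% lower, so the share of rises was near that of other genes. Rpl5, which carries the 5S ribosomal RNA together with Rpl11, measured 9.38, 9.19 and 9.03 in the reperfused lobes at 2 hr, with 9.37, 8.94 and 8.84 in the non-ischemic lobes, against 8.42 to 8.97 (median 8.66) in the shams. The reperfused arrays lay above all shams, at a rise of 0.52 ± 0.11 (q = 0.013), and the difference in the non-ischemic lobes was 0.37 ± 0.13 (q = 0.087). Rps6, the substrate of the ribosomal protein S6 kinases, rose by 0.43 ± 0.11 in the reperfused (q = 0.025) and by 0.44 ± 0.11 in the non-ischemic lobes (q = 0.029). The other canonical genes that rose were Rpl22 (0.29) and Rpl13a (0.25) in the reperfused and Rpl23 (0.32) in the non-ischemic lobes. Among copies, Rpl23al5 (0.73 and 0.56), Rpl17l5 (0.62 and 0.70) and Rpl30l3 (0.47 and 0.39) rose in the reperfused and the non-ischemic lobes, Rpl5l1 (0.69), Rps18l5 (0.49) and Rpl27al4 (0.49) in the reperfused and Rpl17l3 (0.63) in the non-ischemic lobes. Single libraries decided these counts. Without replicate 1, 2 or 3 of the reperfused lobes the count was 1, 2 or 16, and without replicate 2 of the non-ischemic lobes it was 0. Leaving out single shams gave 3 calls (replicate 2 or 3 of 0 hr, replicate 1 or 3 of 0.5 hr) or 12 (replicate 3 of 2 hr) in the non-ischemic lobes.

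At 6 hr of reperfusion most members were higher than in the shams. In the reperfused lobes 111 of 170 rose and none fell, or 65.3% of the members, against 11.5% of all probe sets higher and 5.12% lower. The median difference was 0.55 over all 170 members, where that of all probe sets was -0.02, and the members called ran from 0.28 to 1.51. In the non-ischemic lobes 69 rose and none fell, 40.6% against 8.47% of all probe sets higher and 5.1% lower, at a median of 0.38 against 0.01. Separate fits to the probe sets with a mean of at least 5, adjusted among themselves, called 22.5% of these higher in the reperfused and 16.4% in the non-ischemic lobes. All 3 reperfused arrays lay above all 12 shams for 70 members (41.2%, against 6.96% of all probe sets), and all 3 non-ischemic arrays for 44 (25.9%, against 5.39%). The lobes share their controls. Of the genes called, 68 rose in both lobes, which is 61.3% of the reperfused and 98.6% of the non-ischemic calls. The overlap of calls over the whole array is not given here, so these portions cannot be set against other genes. The direct comparison of the lobes called none, but it could miss small changes. On simulated data it called 14% of log2 changes of 0.5 and 56% of log2 changes of 1. Rpl14l2, a dim member, passed in the non-ischemic lobes (0.39, q = 0.028) and missed the threshold in the reperfused lobes (0.31, q = 0.15).

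These counts moved with single 6 hr arrays and with the choice of controls. Without replicate 1 of the reperfused lobes 67 members were called, and without replicate 1 or 2 of the non-ischemic lobes 17 or 45. Against the 3 shams of 6 hr alone, 58 members were higher in the reperfused and 19 in the non-ischemic lobes, where 6.04% and 4.4% of all probe sets were higher. The medians changed less, at 0.49 and 0.32.

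**Figure D3:**
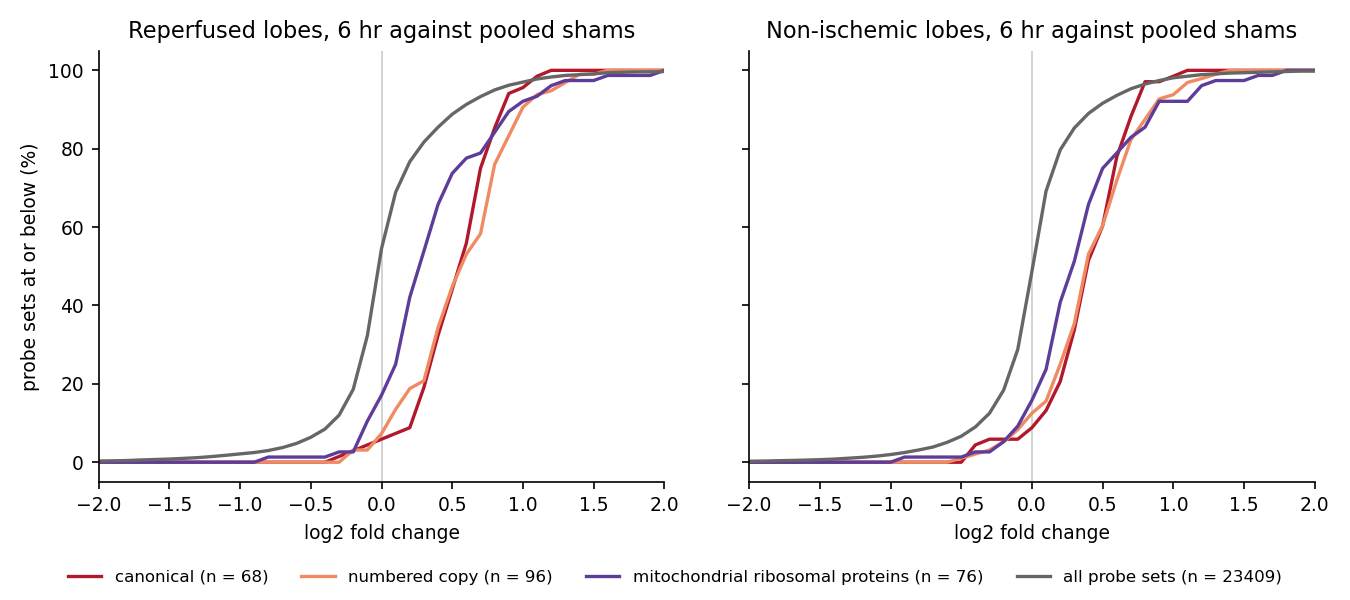
Share of genes (%, y axis) with a log2 fold change at or below the value on the x axis, for the 6 hr reperfused lobes (left) and non-ischemic lobes (right) against the pooled shams. In the reperfused lobes the medians are 0.54 for the 68 canonical genes, 0.56 for the 96 numbered copies, 0.26 for 76 mitochondrial ribosomal protein genes and -0.02 for all 23409 probe sets.

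Both subunits took part. In the reperfused lobes 30 of 42 large-subunit and 18 of 26 small-subunit canonical genes rose, at medians of 0.54 and 0.59, and in the non-ischemic lobes 20 of 42 and 11 of 26, at medians of 0.38 and 0.44. Numbered copies gave 61 of 96 (median 0.56) in the reperfused and 37 of 96 (0.38) in the non-ischemic lobes. In the reperfused lobes, canonical genes with a TOP start at the annotation rose in 15 of 20 cases (median 0.53), those without in 25 of 35 (median 0.61), and copies with a window in 44 of 70 (median 0.65).

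Rpl3, a large-subunit protein that reaches to the peptidyl transferase centre, changed most among the canonical genes. Its 6 hr levels were 12.91, 12.74 and 12.84 in the reperfused lobes, with 12.88, 12.66 and 12.54 in the non-ischemic lobes, against 11.08 to 12.09 (median 11.68) in the shams. All 6 lobe arrays were above all 12 shams, with rises of 1.17 ± 0.17 (q = 0.00033) and 1.03 ± 0.17 (q = 0.0015). Rpl13a, which in human myeloid cells can leave the ribosome to silence inflammatory mRNAs, was singled out after its values were seen, for the lowest q among the members. It had 12.63, 12.60 and 12.25 in the reperfused and 12.77, 12.29 and 12.07 in the non-ischemic lobes, against 11.60 to 11.84 (median 11.71). The shams of this gene spread little, and the rises were 0.79 ± 0.07 (q = 1.7e-05) and 0.67 ± 0.10 (q = 0.00074).

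The largest changes were those of copies. Rps9l1, a copy of the small-subunit gene Rps9, measured 13.01, 13.32 and 12.35 in the reperfused and 13.03, 12.91 and 12.22 in the non-ischemic lobes, against 10.69 to 12.51 (median 11.29) in the shams. The rises were 1.51 ± 0.33 (q = 0.0057) and 1.34 ± 0.33 (q = 0.014). Replicate 3 of each lobe lay below the highest sham, one of 2 hr. The 3 unoperated livers gave 12.52, 12.54 and 12.42, within the range of the 6 hr lobes, and the reperfused lobes of 0 hr already gave 11.998, 12.39 and 11.96. The canonical Rps9 had 14.85, 14.68 and 14.02 in the reperfused lobes, with 14.73, 14.58 and 13.88 in the non-ischemic lobes, against 12.80 to 14.12 (median 13.49) in the shams. It too was high in the unoperated livers, at 14.15, 13.98 and 14.13.

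Rpl17l3, a copy of the tunnel-exit protein gene Rpl17, had 15.26, 14.97 and 14.65 in the reperfused and 15.31, 15.05 and 14.51 in the non-ischemic lobes, against 13.18 to 14.00 (median 13.75) in the shams. No sham reached the lowest lobe array, and the rise was 1.30 ± 0.19 (q = 0.00031) in the reperfused and 1.30 ± 0.20 (q = 0.00078) in the non-ischemic lobes. Rpl23al5 gave 10.19, 10.16 and 9.99 in the reperfused and 9.86, 9.86 and 9.62 in the non-ischemic lobes, against 8.38 to 9.15 (median 8.83), and rose by 1.35 ± 0.15 (q = 7.0e-05) in the reperfused lobes. Rpl17l5 (1.21) and Rps8l1 completed the 5 largest rises of the reperfused lobes. In the non-ischemic lobes these were Rps9l1, Rpl17l3, Rpl17l5 (1.20), Rps12l5 (1.03) and Rpl3.

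**Figure D4:**
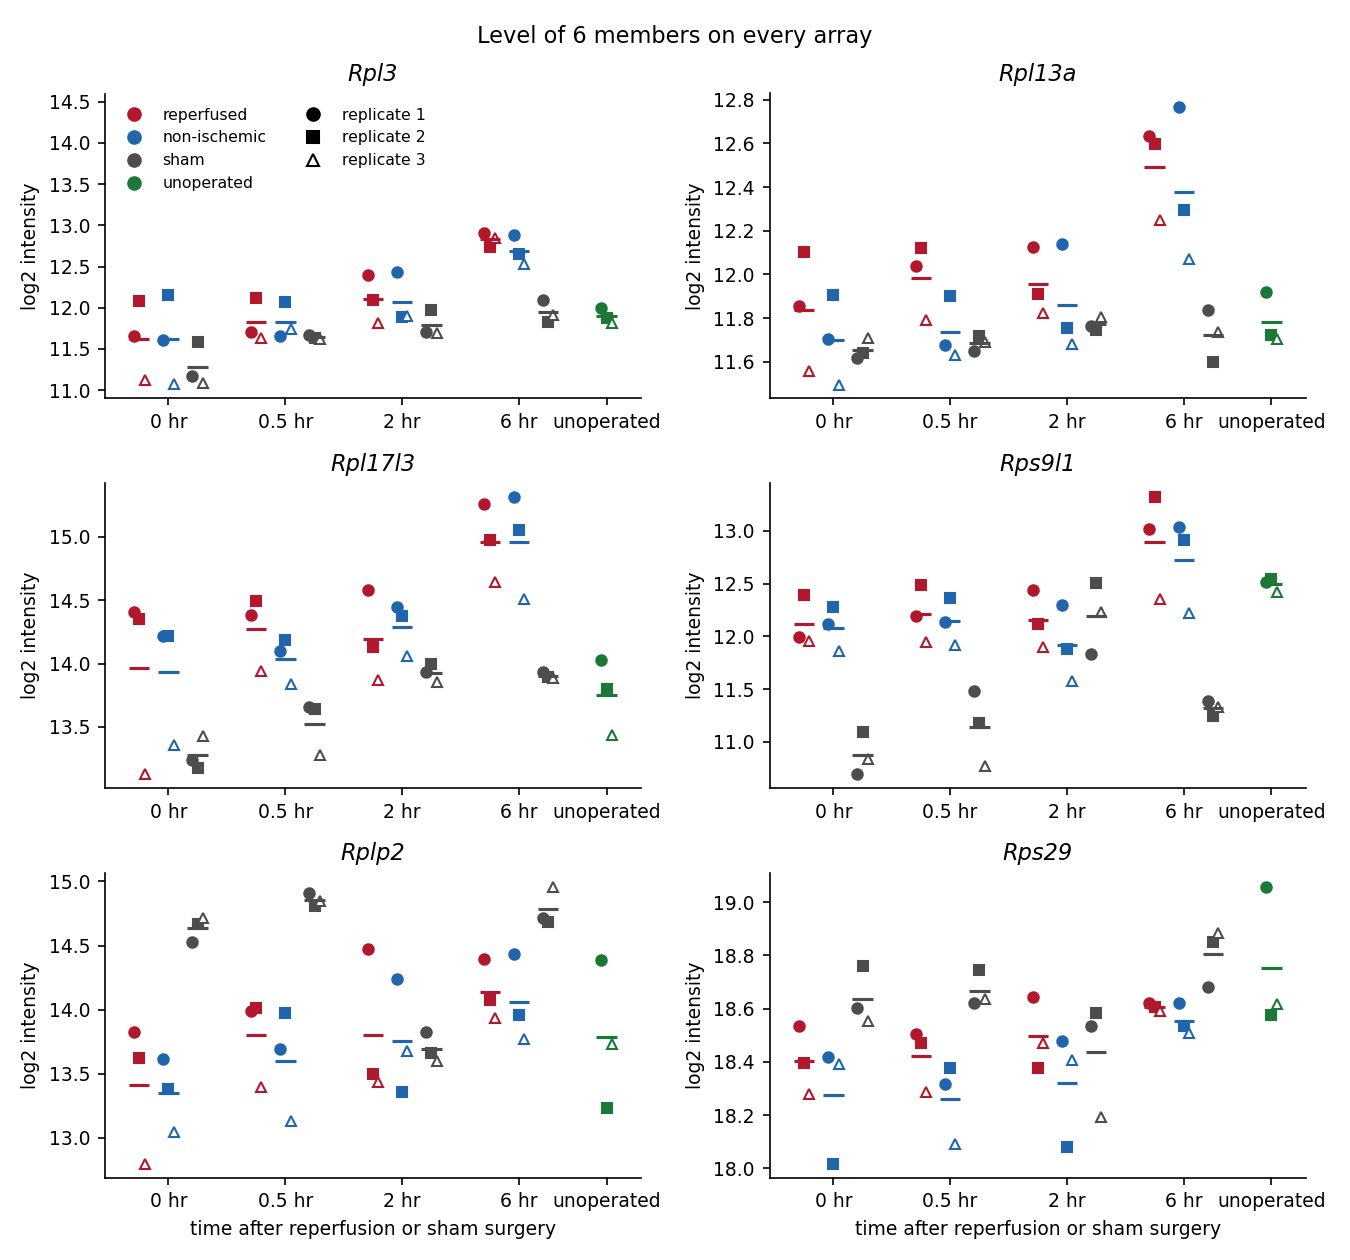
Level (log2 intensity, y axis) of 6 members on all 39 arrays, by time and group (x axis), with bars for means of 3 arrays. Rpl3, Rpl13a, Rpl17l3 and Rps9l1 are highest in the 6 hr lobes, and Rps9l1 is also high in the 3 unoperated livers, at 12.42 to 12.54. Rplp2 is highest in the shams of 0, 0.5 and 6 hr, and the Rps29 lobes of 6 hr, at 18.51 to 18.62, lie within the shams.

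The genes of the ribosomal stalk, which recruits elongation factors, did not move as one. Rplp0, its base, rose by 0.62 ± 0.11 in the reperfused (q = 0.0012) and by 0.44 ± 0.12 in the non-ischemic lobes (q = 0.029). Rplp1 rose by 0.30 ± 0.09 in the reperfused lobes (q = 0.030), and its difference was 0.10 in the non-ischemic lobes (q = 0.58). Rplp2, the partner of Rplp1 in the same stalk, measured 14.40, 14.08 and 13.93 in the reperfused and 14.44, 13.96 and 13.77 in the non-ischemic lobes, against 13.60 to 14.96 (median 14.70) in the shams. The differences were -0.36 ± 0.28 (q = 0.44) and -0.44 ± 0.29 (q = 0.37). Its shams were split by time, since those of 2 hr gave 13.83, 13.66 and 13.60 and the other 9 gave 14.53 to 14.96. Rpsa, a small-subunit protein also known as the laminin receptor, rose by 0.43 ± 0.12 in the reperfused lobes (q = 0.022), with a difference of 0.33 ± 0.13 in the non-ischemic lobes (q = 0.11).

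Of the 12 members that were below the pooled shams in the reperfused lobes, none passed the test, and 5 were Rpl38 and its copies Rpl38l1, Rpl38l3, Rpl38l4 and Rpl38l5. Rpl38, on which translation of a subset of Hox mRNAs depends in mouse embryos, measured at 6 hr 13.41, 13.09 and 13.002 in the reperfused lobes, with 13.21, 12.89 and 12.70 in the non-ischemic lobes. The 6 hr shams gave 13.66, 13.80 and 13.61, above all of these, and the 12 shams ran from 12.46 to 13.86 (median 13.50). Against the 6 hr shams alone, 4 calls were lower, the only ones in that direction. Rpl38 (-0.75 ± 0.14, q = 0.032), Rpl38l1 (-0.84 ± 0.14, q = 0.024) and Rpl38l4 (-0.72 ± 0.12, q = 0.026) fell in the non-ischemic lobes, and Rplp2 (-0.65 ± 0.15, q = 0.046) fell in the reperfused lobes. In the reperfused lobes the difference of Rpl38 was -0.52 ± 0.13 (q = 0.059). Of all probe sets, 3.64% were lower in the reperfused and 3.05% in the non-ischemic lobes in these fits. Rpl39 and Rps29 were the other canonical genes below the pooled shams in the reperfused lobes, with Rpl36 at 0.00 (q = 0.99). Rpl39 and Rps29 each had probe sets of both signs there. Those of Rps29 ran from -0.07 to 0.05 and those of Rpl39 from -0.21 to 0.13, the last for its dimmest. Rps29, near the top of the scale, measured 18.62, 18.61 and 18.59 in the reperfused lobes, against 18.19 to 18.89 (median 18.63) in the shams. Of these, Rpl38, its copies and Rpl36 were singled out after their values were seen.

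**Figure D5:**
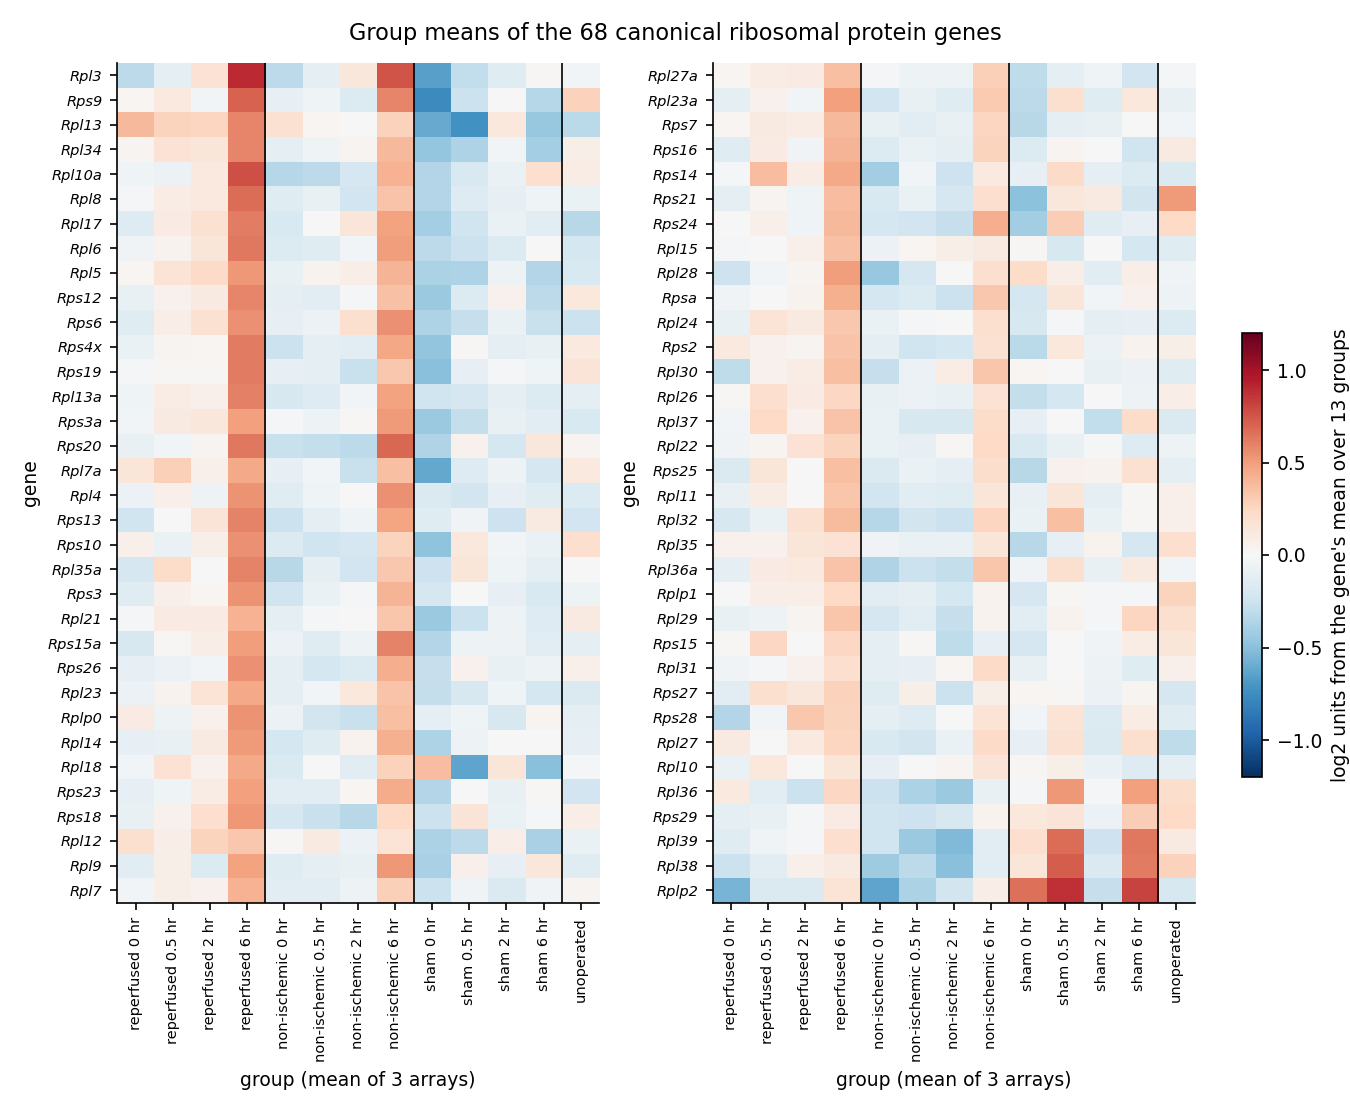
Group means of the 68 canonical genes (rows, in 2 panels) in the 13 groups (columns), as log2 units from the gene's mean over the groups. Genes are in order of their 6 hr change in the reperfused lobes, from Rpl3 (1.17) at the top left to Rplp2 (-0.36) at the bottom right. Red is above and blue below the gene's mean.

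Paralogs did not always follow their partners at 6 hr. Values are those of the reperfused lobes unless stated. Rpl7l1, related to Rpl7, rose by 0.81 ± 0.20 in the reperfused lobes (q = 0.011), beside 0.55 ± 0.11 for Rpl7 (q = 0.0025). Rps4x, the X-linked small-subunit gene, rose by 0.79 ± 0.15 (q = 0.0018), while Rps4y2 differed by 0.59 ± 0.36 (q = 0.31). Rpl22 rose by 0.38 ± 0.06 (q = 0.00076), with 0.25 ± 0.21 for Rpl22l1 (q = 0.47). Rps27 and Rps27l, of which the human counterpart of the second is a p53 target, differed by 0.27 ± 0.11 (q = 0.11) and 0.13 ± 0.17 (q = 0.66). Rpl3l differed by -0.03 ± 0.06 beside the rise of Rpl3, and Rps19bp1 rose by 0.60 ± 0.13 (q = 0.0045) beside 0.79 ± 0.16 for Rps19 (q = 0.0028). The difference between a paralog and its partner was not tested. Rpl26 rose by 0.39 (q = 0.0074), while Rpl10, which completes the large subunit before it can join the small one, differed by 0.18 (q = 0.17), Rpl36a by 0.30 (q = 0.19) and Rpl39 by -0.12 (q = 0.80). Rpl10l, Rpl26l1, Rpl36al and Rpl39l had no probe set with a single symbol. In the non-ischemic lobes Rpl22l1 differed by 0.52 ± 0.23 (q = 0.17), beside a rise of 0.36 ± 0.07 for Rpl22 (q = 0.0039). There Rpl7l1 missed the threshold (0.57 ± 0.22, q = 0.097), beside a rise of 0.41 ± 0.11 for Rpl7 (q = 0.023).

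Within families, the copies of Rpl10a (3 of 3), Rps20 (4 of 4), Rpl23a (4 of 5) and Rpl31 (4 of 5) rose in the reperfused lobes. None of the 4 copies of Rpl38 and none of the 3 copies of Rpl36 did, as for their canonical genes. In other families the calls differed between the canonical gene and the copies, but the difference between them was not tested. Rpl37 (0.38) and Rpl29 (0.29) were not called while 3 of 4 and 2 of 3 of their copies were. Both lay within the range of their copies, 0.36 to 0.75 for Rpl37 and 0.18 to 0.80 for Rpl29. Rps15a was called with 0 of its 2 copies, whose means were low, at 5.06 and 4.75. Of 27 members with several probe sets, all probe sets had the same sign in the reperfused lobes for 25 and in the non-ischemic lobes for 26.

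The comparison of 6 hr with 0 hr of reperfusion in the same lobe does not use the shams. In the reperfused lobes 8 members rose and none fell (4.71% of the members, against 2.51% of all probe sets higher and 2.21% lower), and 166 of 170 differences were positive at a median of 0.50. Rpl3 measured 12.91, 12.74 and 12.84 at 6 hr, against 11.66, 12.08 and 11.13 at 0 hr, a rise of 1.21 ± 0.24 (q = 0.0497). Rpl30, a large-subunit protein that in yeast regulates the splicing of its own transcript, had 7.92, 7.92 and 7.81 at 6 hr, against 7.30, 7.32 and 7.02 at 0 hr (0.67 ± 0.11, q = 0.032). The times do not overlap for either gene. Rpl23al7 (0.73), Rpl23al1 (0.71), Rpl27al5 (0.66), Rps27l3 (0.58), Rps16 (0.56) and Rps21 (0.49) also rose. In the non-ischemic lobes 6 rose and none fell (3.53%, against 3.3% of all probe sets higher and 3.02% lower), at a median of 0.43 with 169 of 170 positive. These were the copies Rpl10al3 (0.90), Rps13l1 (0.81), Rpl30l1 (0.79), Rps16l1 (0.68) and Rps27l3 (0.65), and Rps19bp1 (0.53). With 3 arrays a side both counts fell to 0 when single arrays were left out: replicate 1 or 3 of 0 hr or replicate 1 or 2 of 6 hr in the reperfused lobes, replicate 3 of 0 hr or replicate 1 or 2 of 6 hr in the non-ischemic lobes. A fit to all 39 arrays, which shares the spread over all groups, called 53 and 41 members in the reperfused and non-ischemic lobes.

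Sham surgery alone was followed over the same times. Between the 6 hr shams and those of 0, 0.5 and 2 hr, 1 member rose (0.588%, against 3.45% of all probe sets higher and 2.82% lower), at a median of 0.11 with 126 of 170 positive. It was Rpl10al1, the copy with a TOP start, at 11.86, 11.67 and 11.59 in the 6 hr shams, against 10.94 to 11.49 in the 9 earlier ones (0.55 ± 0.13, q = 0.024). Its 6 hr lobes were higher still, at 12.52, 12.19 and 12.09 in the reperfused and 12.61, 11.98 and 11.83 in the non-ischemic lobes. The change over 6 hr in the lobes was set against that in the shams by an interaction. No member passed for the reperfused lobes (0.654% of all probe sets did) or for the non-ischemic lobes (0.0641%), with 16 members at an unadjusted p under 0.05 in each and medians of 0.24 and 0.20. Rpl28, which has a TOP start, came nearest in the reperfused lobes. It had 11.26, 11.29 and 11.40 at 6 hr, against 10.67, 10.78 and 10.25 at 0 hr, in those lobes. Shams had 10.88, 10.78 and 11.03 at 6 hr, against 10.97, 11.08 and 11.06 at 0 hr, for an interaction of 0.89 ± 0.18 (q = 0.064).

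Pooled shams and unoperated livers did not differ by the test for any member (1.25% of all probe sets passed; 28 members at an unadjusted p under 0.05), at a median of -0.11. The lowest p was that of Rps9l1, with -1.11 ± 0.31 (q = 0.105). Lobes were not tested against unoperated livers.

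Other genes of the pathway were counted in the 6 hr fits against the pooled shams, from lists chosen with earlier results known. Over the whole array, 11.5% of probe sets rose in the reperfused and 8.47% in the non-ischemic lobes. Among the brighter probe sets, with a mean of at least 5, these shares were 22.5% and 16.4%. No list was tested against these shares. Of 44 genes of ribosome biogenesis, 30 rose in the reperfused lobes and 18 in the non-ischemic lobes, with none lower and medians of 0.86 and 0.58. Nop58 and Nop56, core proteins of the box C/D complexes that guide ribosomal RNA methylation, rose by 2.23 ± 0.52 (q = 0.0084) and 2.19 ± 0.41 (q = 0.0021) in the reperfused lobes. The mean level of the biogenesis list was already high at 2 hr. It was 9.33 in the reperfused and 9.58 in the non-ischemic lobes at 2 hr, against 9.40 and 9.20 at 6 hr. The pooled shams were mixed for this list, at 9.01 for those of 2 hr against 8.34, 8.21 and 8.33 for those of 0, 0.5 and 6 hr. Of 19 initiation factors, 18 rose in the reperfused and 14 in the non-ischemic lobes, among them the helicase Eif4a1 (0.96 and 0.77). Of 14 other genes with TOP mRNAs, 9 and 7 rose, led in the reperfused lobes by the nucleolar chaperone Npm1 (1.37). Rack1, a scaffold protein of the small subunit outside the rule, rose by 0.59 and 0.53. Among 18 genes of TOP control and ribosomal protein kinases, 4 rose and 1 fell in the reperfused and 3 rose and 6 fell in the non-ischemic lobes. The shares of rises in this list were near those of the brighter probe sets. Its share of falls was near that of all probe sets in the reperfused lobes (5.12%) and above it in the non-ischemic lobes (5.1%). Falls among the brighter probe sets are not given here. Mitochondrial ribosomal proteins, which serve the separate ribosome of mitochondria, gave 26 higher and 1 lower of 76 in the reperfused and 25 higher and 1 lower in the non-ischemic lobes, at medians of 0.26 and 0.28. Mrpl12 rose by 1.28 and 1.12, and Mrpl36 fell by 0.90 in both lobes.

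Some cell type markers were called in the same fits too, and their part in the results was not tested. Over the whole array, 11.5% of probe sets rose and 5.12% fell in the reperfused lobes. The non-ischemic lobes had 8.47% rising and 5.1% falling. Whether the calls of a marker list exceed these shares was not tested, and the lists are short. Levels below are the mean log2 level of a marker list on an array, as the range over the arrays of the 6 hr reperfused lobes, of the 6 hr non-ischemic lobes and of all 12 shams. Of 5 cholangiocyte markers, 1 rose in the reperfused (Epcam, by 1.99 ± 0.51, q = 0.013) and 2 in the non-ischemic lobes (Krt19, by 0.50 ± 0.15, q = 0.035, and Spp1), at 5.68 to 7.62, 5.74 to 6.79 and 5.40 to 5.72. Of 7 stellate cell markers, 2 fell in the reperfused (Lrat and Col3a1) and 1 in the non-ischemic lobes (Lrat), at 8.17 to 8.33, 7.80 to 8.54 and 8.36 to 9.48. The reperfused lobes lay below all shams for this list. Of 7 Kupffer cell and macrophage markers, 1 fell in the reperfused (Adgre1) and 2 in the non-ischemic lobes (Adgre1 and Csf1r), at 11.29 to 11.59, 10.93 to 11.50 and 11.11 to 12.27. Of 7 endothelial markers, 1 fell in the reperfused lobes (Stab2) and 0 in the non-ischemic lobes, at 10.17 to 10.22, 10.01 to 10.26 and 9.99 to 10.93, where the 6 hr shams alone gave 9.99 to 10.24. Of 10 hepatocyte markers 3 fell in the reperfused lobes (Tat, Ass1 and Cps1) and 1 in the non-ischemic lobes (Ttr), at 17.15 to 17.39, 17.33 to 17.47 and 17.38 to 17.74. Of 10 leukocyte markers 2 rose in the reperfused lobes (S100a8 and S100a9) and 0 in the non-ischemic lobes, at 5.60 to 6.77, 5.57 to 6.27 and 5.42 to 5.88. The same 2 also rose in the 6 hr shams against earlier shams. None of 6 red blood cell markers was called, at 11.67 to 12.34, 10.95 to 13.04 and 11.08 to 12.71. The albumin gene Alb stood at 19.87 to 19.93 in the group means, above the mark of 19 used here for near saturation.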

How the data were processed

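RNA of 39 rat livers or lobes was hybridised to Affymetrix Rat Transcriptome 1.0 arrays. Per the methods, the authors used RMA with signal space transformation (Affymetrix Expression Console 1.0) and deposited linear intensity values for 23409 probe sets of coding genes, so levels relative to total RNA and not per cell are compared. Intensities were converted to log2 here (Python 3.11.15) and not normalized again. Array medians ran from 39.6 to 43.6. Replicates are separate animals, and 3 arrays a group limit the precision.

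Each comparison was a limma 3.58.1 fit (R 4.3.3) of the compared groups alone, over all probe sets, two-sided, with Benjamini-Hochberg adjustment and a call at q under 0.05. The interquartile range filter of the methods (11704 probe sets) was kept as an alternative, because it would leave 15 members untested. The fit was checked on simulated data. Members, gene lists and named genes were chosen with earlier results of these data known. Named genes were, in each comparison, up to 5 largest changes in each direction past the threshold whose arrays did not overlap (against pooled shams, all on one side of the sham mean), the lowest p where a lobe comparison gave no call, paralogs and partners, stalk genes and Rpsa, the brightest, the widest and narrowest ranges, and of other lists at most 2 per comparison. Other members named were chosen after their values were seen.

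Lobes with the same replicate number at a time were taken as those of one animal. Over probe sets their deviations correlated at 0.14 to 0.84 in 12 animals. At 6 hr the values were 0.14, 0.66 and 0.24, and same-numbered pairs of a lobe and a sham, from different animals, reached 0.29. The correlation therefore cannot show the pairing at 6 hr. The animal as a block changed no call (0 at each time). Start windows came from RefSeq (GRCr8); 167 members matched by gene ID. Left out were 49 "-ps" probe sets, 9 of kinases and 7 with several symbols. The member called in the reperfused lobes at 0.5 hr is not reported here.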

Additional observations from a re-analysis of the deposited data

Results flagged for a closer look

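The 49 probe sets with "-ps" symbols, which belong to no comparison above, were looked at in the 6 hr lobes. In 14 of 49 all 3 reperfused arrays lay above all 12 shams, and in 12 of 49 all 3 non-ischemic arrays did, with median differences of 0.54 and 0.44. The shares over all probe sets were 6.96% and 5.39%.

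The lobe difference of 2 members had one sign in all 3 animals of a time and the opposite sign in all 3 other animals of another time. For Rpl22l1 it averaged 0.327 at 0.5 hr and 0.376 at 2 hr, and -0.265 at 6 hr, where all 3 reperfused lobes were below their non-ischemic lobes. For Rpl23al7 it averaged -0.0823 at 0 hr, 0.25 at 0.5 hr and 0.636 at 6 hr. The difference between times was not tested. Only the members with the lowest p between lobes were looked at for this, so both were chosen by their values.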

How the results depend on the processing

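No call reversed under any alternative. Of the alternative values of named genes, 573 stayed on their side of the threshold and 150 no longer passed. At 6 hr the counts of 111 and 69 kept within 1.5 times under the filters, quantile normalization, trended variances and the fit to all arrays, but were 59 and 22 against the shams of 6 hr alone. Those 59 were 58 higher and 1 lower, and those 22 were 19 higher and 3 lower. At the other times the counts were small and moved with most settings. With the dim filter they were 0 (reperfused) and 0 (non-ischemic) against shams at 0.5 hr, 17 and 11 at 2 hr, 11 for the non-ischemic lobes at 6 against 0 hr and 2 for the 6 hr shams. Same-time shams gave 9 and 12 at 0.5 hr and 1 and 0 at 2 hr, and shams of 0 to 2 hr gave 0 and 0 at 0.5 hr. Quantile normalization gave 3 (reperfused, 0.5 hr), 14 (reperfused, 6 against 0 hr), 3 (6 hr shams) and 1 (shams against unoperated). The interquartile range filter gave 5 for the reperfused lobes at 6 against 0 hr. Trended variances gave 3 there, 3 for the non-ischemic lobes at 2 hr and 0 for these at 6 against 0 hr. The fit to all 39 arrays gave 4 and 7 at 0 hr, 6 and 7 at 0.5 hr, 18 for the non-ischemic lobes at 2 hr, 53 and 41 at 6 against 0 hr, 0 for the 6 hr shams, 6 for shams against unoperated and 5 and 2 for the interactions. The cause was not tested.

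Between different animals, 14 of 96 same-numbered pairs of a lobe and a sham correlated above 0.1 (range -0.28 to 0.29), and pairs of 6 and 0 hr gave 0.02, 0.02 and 0.09 for reperfused and 0.12, -0.03 and 0.22 for non-ischemic lobes. Not every pair passed 0.1, so the number was not taken to pair them, although the array numbered 3 had the lowest mean over the members in 13 of 13 groups. With the number as a replicate block, chosen after seeing the data, the counts were 111 and 70 at 6 hr, 6 and 3 at 2 hr, 0 for the reperfused lobes at 6 against 0 hr and 3 for the 6 hr shams. The animal as a block gave 0 calls between lobes.

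Leaving out 1 array gave 0 to 0 calls between lobes at each time. Against shams it gave 0 to 1, 0 to 4, 1 to 16 and 67 to 112 for the reperfused and 0 to 0, 0 to 2, 0 to 12 and 17 to 79 for the non-ischemic lobes. For 6 against 0 hr it gave 0 to 13 and 0 to 9, for 6 hr shams 0 to 4, for shams against unoperated 0 to 2, and for the interactions 0 to 2 and 0 to 0. Without replicate 2 of the reperfused lobes 79 members were called at 6 hr. At 2 hr, leaving out replicate 3 of the 2 hr shams gave 12 for the non-ischemic lobes. Without replicate 3 of the 0 hr reperfused lobes 1 member was called there, and without any 6 hr sham none in the comparison of shams. At 0.5 hr, 4 were called without replicate 3 of the reperfused lobes, 2 without replicate 2 of the 0.5 hr or replicate 1 of the 2 hr shams, and for the non-ischemic lobes 2 without replicate 3 of the 2 hr shams. For 6 against 0 hr, 13 were called without replicate 3 of the 6 hr reperfused lobes and 1 without replicate 1 of the 0 hr non-ischemic lobes. Between shams, 4 were called without replicate 2 of 0.5 hr and 2 without replicate 1 or 3 of 2 hr. Against unoperated livers 2 were called without replicate 2 of the 2 hr shams, and for the reperfused interaction 2 without replicate 2 of the 0 hr lobes. Signal limits the 16 dim members and Rps29, near saturation.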
